A study of Mus musculus with 32 samples.

Results

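Target genes of the Wnt/β-catenin pathway were followed through the 11 culture conditions of an RNA-seq series on the exit of mouse embryonic stem cells (ESCs) from naive pluripotency. The 8 genes were *Axin2*, *Nkd1*, *Rnf43*, *Znrf3*, *Notum*, *Sp5*, *Cdx1* and *Cdx2*, picked by name as known Wnt targets among the 51826 genes of the count table. The rule uses no measured value, but it was drawn up with earlier results of these data known. All 8 passed the filter on low counts and were tested. The question was how cultures that contained an inhibitor of GSK3 differed from cultures that did not.

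Wnt signalling works by sparing β-catenin. In unstimulated cells a complex built on Axin and APC lets the kinase GSK3 phosphorylate β-catenin, which is then degraded. Wnt ligands at Frizzled receptors, or a chemical inhibitor of GSK3, stop this degradation, and β-catenin then enters the nucleus and joins TCF/LEF factors at target genes. TCF3, encoded by *Tcf7l1*, acts mainly as a repressor in ESCs, and relief of this repression is a known consequence of GSK3 inhibition. Many targets encode proteins that dampen the pathway again, so that their RNA serves as a read-out of its activity.

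All cells were mouse ESCs of the RGd2 line, which carries a destabilized GFP reporter at *Rex1*, or mutants derived from it. Controls (RGd2) were 2 libraries of the parental line and 1 of a clonal derivative in each condition. They were kept in 2i, the serum-free medium N2B27 with the GSK3 inhibitor CHIR99021 (CH, Chiron) and the MEK inhibitor PD0325901; in 2i for 5 passages (2i-p5); in CH alone for 2 passages (CH-p2); or in N2B27 without inhibitors for 16 h (N16h) or 72 h (N72h). *Rbpj*-KO and *Etv5*-KO lines were sampled in 2i and N16h, *Etv5*/*Rbpj* double mutants (ER-dKO) after 5 passages in CH alone (CH-p5), and *Etv5*/*Tcf3*/*Rbpj* triple mutants (ETR-tKO) after 5 passages in N2B27 without inhibitors (N-p5). Mutants were made with Cas9 and pairs of guide RNAs to different exons, and within a condition each mutant library came from a different clonal line. The lines of ETR-tKO replicates 14 and 15 share the prefix Tc1 in their labels. They may therefore come from the same *Tcf3* mutant clone and not be independent. Every condition had 3 libraries except *Etv5*-KO N16h, which had 2. The study's methods name RGd2 N16h as the group that lost a library, and the labels were followed here. The parental RGd2 libraries of a condition share a line, so p-values measure the spread between these samples, which may be partly technical. By the study's methods, all lines were routinely grown in CH with the cytokine LIF and moved to 2i shortly before an assay, so that the 2i and N16h cultures had a recent history in CH/LIF. Legends of the study's GFP profiles count N72h from the withdrawal of CH/LIF. Whether the N72h RNA-seq libraries started from 2i or from CH/LIF was not established. 2i differs from N2B27 by both inhibitors. No MEK inhibitor was present on either side of CH-p2 against N72h, where the time in culture also differed, nor of ER-dKO CH-p5 against ETR-tKO N-p5, where the genotype also differed.

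The 32 libraries held 5986857 to 71439411 counts on genes, with a median of 29940141, and the smallest was RGd2 2i replicate 33. Of all counts, 0.9909% to 1.521% lay on ERCC spike-in transcripts, which set the scaling. Libraries numbered 1 to 15 (2i-p5, CH-p2, N72h, ER-dKO and ETR-tKO) and 17 to 33 (2i, N16h, *Etv5*-KO and *Rbpj*-KO) form separate runs of numbers, although the labels do not call them batches. All tested comparisons between single conditions lie within one run except 2i-p5 against 2i. Levels of RGd2 2i or N16h set beside those of 2i-p5, CH-p2 or N72h lie across the runs. Such differences in level cannot be told apart from a difference between the runs. Of the targeted genes, *Rbpj* was at 2.72 to 3.6 FPKM in *Rbpj*-KO 2i against 12 to 12.9 in RGd2 2i, *Etv5* at 22.7 to 30.7 in *Etv5*-KO N16h against 124 to 128 in RGd2 N16h, and *Tcf7l1* at 0.294 to 1.1 in ETR-tKO against 5.8 to 7.14 in RGd2 N72h. In ER-dKO, *Rbpj* was at 3.25 and 3.84 FPKM in replicates 10 and 11 but at 9.88 in replicate 12, within the range of RGd2 2i-p5 (9.8 to 11) and below that of RGd2 CH-p2 (12.3 to 12.7). ER-dKO results are given with the library labelled replicate 12 and, where that changes a call, without it. FPKM, the count of fragments scaled for exon length and for library size, is the level scale used throughout. Changes are log2 fold changes (log2FC) from spike-in normalised counts, tested with edgeR's quasi-likelihood test over 18892 genes. Their standard errors (SE) are approximate: the absolute log2FC was divided by the square root of the test's F statistic. Where a group has few or no reads, such an SE does not measure the error of the fitted size. A gene was called when its Benjamini-Hochberg adjusted p was under 0.05 and its mean FPKM reached 1 on either side.

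*Axin2* encodes the inducible scaffold of the destruction complex and is the most widely used read-out of β-catenin activity. Its FPKM in RGd2 was 19.5, 17.6 and 22.9 in 2i, 18.3, 17.7 and 18.7 in 2i-p5, and 12.1, 12.8 and 12.6 in CH-p2. Without inhibitors it was 3.57, 3.13 and 3.24 at N16h and 1.44, 1.34 and 1.58 at N72h. No library without the inhibitor reached the level of any library with it, in any genotype: the lowest with it was RGd2 CH-p2 replicate 4 at 12.1, and the highest without it was ETR-tKO replicate 14 at 4.77.

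*Sp5*, a zinc-finger transcription factor induced by Wnt in many tissues, was close to an on-off gene. Reads on *Sp5* numbered 525, 440 and 162 in the 3 RGd2 2i libraries and 1, 1 and 0 at N16h. In *Rbpj*-KO N16h, all 3 libraries had 0 reads. The highest level was in CH-p2, at 16.4, 18.3 and 14 FPKM. RGd2 2i (6.75, 5.81 and 12.9 FPKM) and 2i-p5 (8.44, 7.45 and 8.32) lay below every CH-p2 library and overlapped with each other.

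The caudal-type homeobox genes *Cdx1* and *Cdx2*, which pattern the posterior embryo, were likewise far lower without the inhibitor. Unlike *Sp5*, both overlapped in FPKM between RGd2 2i and CH-p2. Both were lower in 2i-p5 than in every RGd2 2i library, at 8.52, 7.53 and 7.74 FPKM for *Cdx1* and 1.96, 2.25 and 3.19 for *Cdx2*. *Cdx1* was at 18.3, 18.8 and 29.6 FPKM in RGd2 2i and at 0.353, 0.233 and 0.396 at N16h, and only 3, 1 and 2 reads remained at N72h. In CH-p2 it reached 34.3, 33.4 and 28.7 FPKM. *Cdx2* was at 5.33, 4.2 and 4.21 FPKM in RGd2 2i and 8.05, 7.69 and 5.29 in CH-p2, with 6 reads or fewer in each of the 14 libraries without the inhibitor. *Cdx2* also specifies trophoblast. Of the 6 trophoblast markers listed, *Krt18*, *Krt8* and *Tfap2c* were at mean FPKM of 53.7, 49.7 and 19.3 in CH-p2, and *Hand1*, *Gata3* and *Elf5* at 0.195, 0.0396 and 0.0297. At N72h, *Krt18*, *Krt8* and *Tfap2c* were at 118, 58 and 0.609, and *Hand1*, *Gata3* and *Elf5* at 0.0225, 0.0811 and 0. The part of such cells in the *Cdx2* level was not tested.

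The secreted carboxylesterase *Notum*, which inactivates Wnt proteins by removing their lipid, followed another course. Its FPKM was 55.2, 50.2 and 54 in RGd2 2i and still 31.7, 30.2 and 21.6 at N16h, but 0.444, 0.337 and 0.587 at N72h. In CH-p2, with the GSK3 inhibitor present, *Notum* was at 7.79, 8.74 and 6.84, below every RGd2 N16h library. CH-p2 and N16h lie in different runs of library numbers. ETR-tKO cells, which had been passaged without any inhibitor, held 9, 11.4 and 11.6 FPKM. The plot of levels by condition shows that *Notum* did not divide by the inhibitor.

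**Figure D1:**
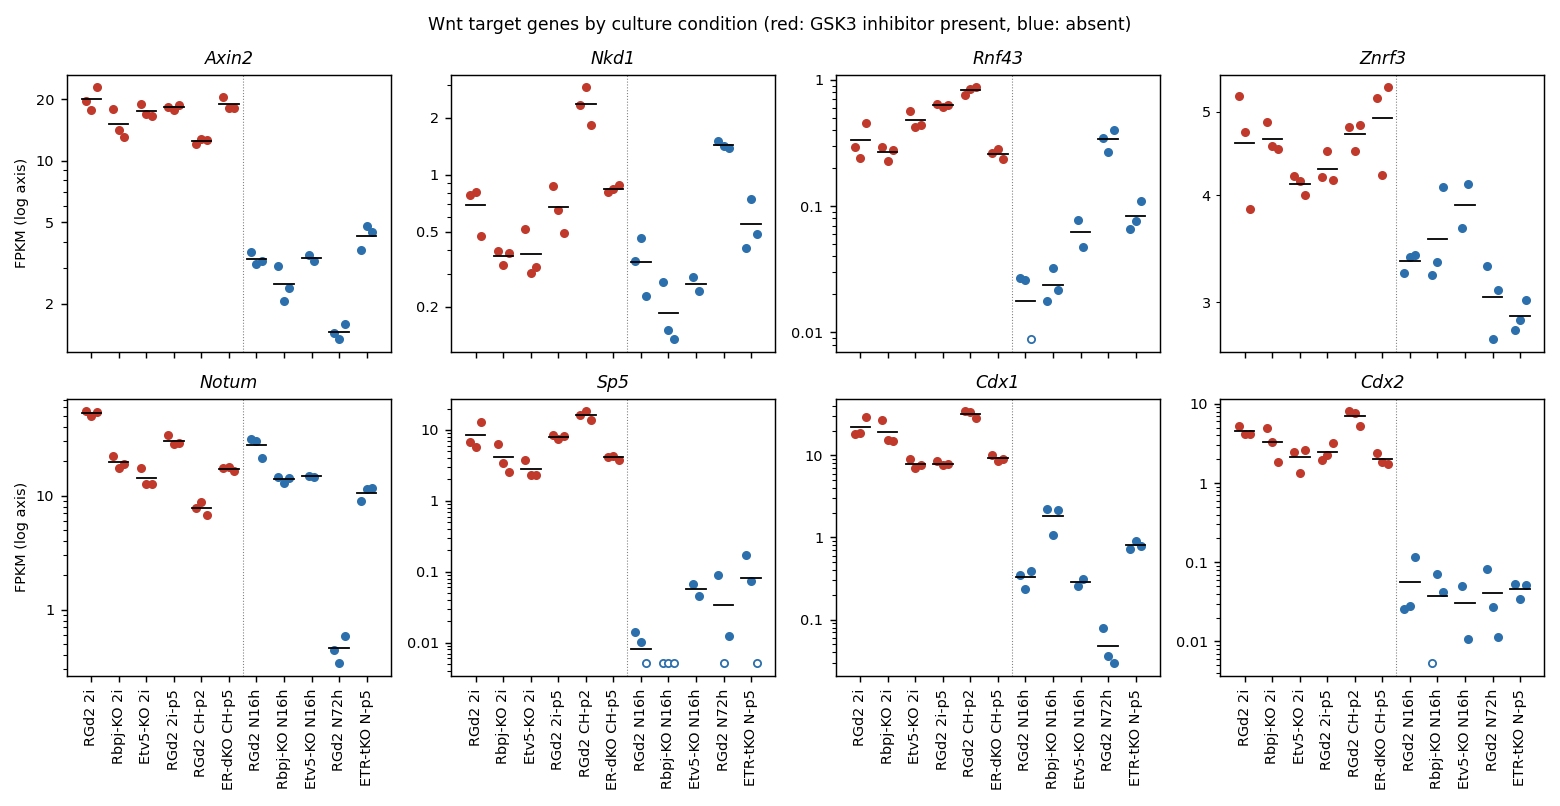
Level of each of the 8 genes (FPKM, log axis) in every library, with conditions containing the GSK3 inhibitor in red to the left of the dotted line and those without in blue to the right; bars are condition means and open circles, drawn at the bottom, are libraries with 0 reads. The groups with and without the inhibitor are separate for *Axin2*, *Sp5*, *Cdx1* and *Cdx2* and overlap for *Nkd1*, *Rnf43*, *Znrf3* and *Notum*. The share of all genes that separate in this way was not computed, so the separation only describes these genes.

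The transmembrane ubiquitin ligases *Znrf3* and *Rnf43*, which remove Frizzled receptors from the cell surface, differed in level. *Znrf3* varied little, from 3.85 to 5.34 FPKM with the inhibitor and from 2.72 to 4.12 without. *Rnf43* stayed under 1 FPKM in every library, so that it could not be called in any comparison. It was at 0.296, 0.241 and 0.458 in RGd2 2i and 0.0269, 0.0261 and 0 at N16h, and higher again at N72h with 0.347, 0.266 and 0.404. *Nkd1*, which binds Dishevelled and restrains the pathway, was likewise lower at N16h (0.349, 0.46 and 0.228 FPKM) than at N72h (1.51, 1.42 and 1.39), and highest in CH-p2 (2.35, 2.91 and 1.84).

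Averaged over all conditions, 6 of 8 genes were called higher with the inhibitor and 0 lower, where 26.2% of the 11902 genes at or above the FPKM minimum were called higher and 29.7% lower. The median log2FC was 2.68 for the 8 genes and -0.04 for all genes tested. *Sp5* had the largest fitted log2FC, 8.18 ± 0.25 (SE, adjusted p = 1.81e-26). It was followed by *Cdx2* at 6.36 ± 0.23 (2.92e-25), *Cdx1* at 5.27 ± 0.13 (7.37e-31) and *Axin2* at 2.59 ± 0.07 (6.15e-30). Without the inhibitor *Cdx2* had 6 reads or fewer per library, and *Sp5* had 0 in all 3 *Rbpj*-KO N16h libraries. The fitted sizes and SEs of *Sp5* and *Cdx2* therefore rest on few reads. Much smaller were the rises of *Notum*, 1.35 ± 0.08 (3e-18), and *Znrf3*, 0.46 ± 0.06 (5.87e-08). *Rnf43*, at 2.77 ± 0.15 (8.47e-19), and *Nkd1*, at 0.77 ± 0.13 (3.23e-06), passed the test below the FPKM minimum. With libraries 1 to 15 alone or 17 to 33 alone, 6 genes were again called, although *Nkd1* no longer passed the test in the first set (log2FC 0.3, adjusted p = 0.101).

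Other genes moved with the medium as well. ERK-responsive genes, 7 in the list, summed to 7.67 to 19.8 FPKM in the cultures with MEK inhibitor and 91.8 to 197 in all others, CH-p2 and ER-dKO included. The 8 naive pluripotency markers summed to 55.5 to 59.6 FPKM at N72h and to at least 275 in every other library. In bulk RNA, fewer cells expressing a gene and less RNA per cell cannot be told apart, and the part of these changes in the values of the Wnt targets was not tested.

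Upstream sequences are shown for *Axin2*, *Sp5* and *Cdx2*, which separated by the inhibitor in every library, as the 250 bases before the RefSeq start site on GRCm38.p6, 5′ to 3′ on the gene's strand. *Sp5* lies at chr2:70474923-70477729 on the plus strand with its printed window at chr2:70474673-70474922, *Axin2* at chr11:108920349-108950783 on the plus strand with its window at chr11:108920099-108920348, and *Cdx2* at chr5:147300805-147307270 on the minus strand with its window at chr5:147307250-147307499. TCF/LEF factors recognise CTTTG followed by A or T, and the 4 spellings with an A or T in each of the last 2 places (the letters CTTTGAA, with CTTTGAT besides, then CTTTGTA, with CTTTGTT besides) were searched on both strands. Matches stand in capitals.
Sp5: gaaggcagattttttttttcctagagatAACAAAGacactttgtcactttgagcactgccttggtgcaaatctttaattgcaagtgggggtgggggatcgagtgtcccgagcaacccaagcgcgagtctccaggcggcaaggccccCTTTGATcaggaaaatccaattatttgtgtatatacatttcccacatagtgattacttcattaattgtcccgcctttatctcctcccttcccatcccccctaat
Axin2: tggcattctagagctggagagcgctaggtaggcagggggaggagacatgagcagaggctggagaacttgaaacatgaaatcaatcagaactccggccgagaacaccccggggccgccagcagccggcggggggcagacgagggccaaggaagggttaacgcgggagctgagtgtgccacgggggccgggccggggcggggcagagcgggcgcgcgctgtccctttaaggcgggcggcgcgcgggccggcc
Cdx2: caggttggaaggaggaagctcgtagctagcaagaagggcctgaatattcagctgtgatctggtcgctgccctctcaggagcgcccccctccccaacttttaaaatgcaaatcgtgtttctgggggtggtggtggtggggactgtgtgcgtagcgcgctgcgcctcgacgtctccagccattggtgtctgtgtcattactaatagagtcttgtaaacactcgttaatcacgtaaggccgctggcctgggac
*Sp5* had 2 matches, CTTTGTT on the opposite strand at position -222 from the start site and CTTTGAT on the gene's strand at position -104. *Axin2* and *Cdx2* had 0. Promoters of 300 bases (250 before and 50 after the start) were searched for 5 of the 8 genes, with 6 start sites in all (*Rnf43* has a pair), and 1 held a match. Among the 32851 promoters searched, 16.9% held at least one. A match is a run of letters and not a measured binding site, and its absence says only that these letters are not in this window. The promoters of *Znrf3*, *Notum* and *Cdx1* were not searched, and whether they hold a match was not tested.

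Withdrawal of 2i for 16 h was sampled in RGd2 and in both single mutants. In RGd2, 6 of 8 genes were called higher in 2i than at N16h and 0 lower. The background was 37.4% higher and 8.63% lower of 11748 genes, or 24.4% and 22.5% after TMM normalization of the gene counts. The median log2FC was 3.46 for the 8 genes and 0.23 for all genes tested. The changes were 6.94-fold for *Axin2* (log2FC 2.8 ± 0.14, adjusted p = 5.21e-19), 79-fold for *Cdx1* (6.3 ± 0.26, 1.16e-21) and 111-fold for *Cdx2* (6.79 ± 0.45, 1.16e-15), whose log2FC was 7.53 without N16h replicate 24. For *Sp5*, the N16h libraries were under 3 reads each, and against that floor its level in 2i was at least 213-fold higher. Setting genes at this floor to their bound left the median of the 8 genes at 3.46. *Notum* was 2.22-fold higher in 2i (1.15 ± 0.16, 1.12e-07) and *Znrf3* 1.65-fold (0.72 ± 0.14, 8.74e-05). *Rnf43* (4.11 ± 0.39, 1.89e-11) and *Nkd1* (1.29 ± 0.28, 0.00031) passed the test in the same direction below the FPKM minimum.

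*Rbpj*-KO lines showed a withdrawal response in the same direction. Again 6 genes were called higher in 2i and 0 lower, against a background of 16.3% higher and 11.6% lower, with a median log2FC of 3.03 and 0.01 for all genes tested. *Axin2* was 6.24-fold higher in 2i (2.64 ± 0.15, adjusted p = 9.2e-18). *Cdx1* was 10.6-fold higher (3.41 ± 0.22, 7.23e-16), *Sp5* at least 64.5-fold and *Cdx2* at least 56.7-fold. For *Cdx2* the fitted log2FC was 6.57, and 5.87 or 7.34 without N16h replicate 19 or 20. Below the FPKM minimum, *Rnf43* (3.52 ± 0.42, 1.1e-08) and *Nkd1* (1.01 ± 0.34, 0.0263) passed the test, *Nkd1* only while *Rbpj*-KO 2i replicates 28 and 30 and N16h replicates 20 and 21 were all included (0.0637 to 0.115 without one of them). The rises of *Notum* (0.55 ± 0.16, 0.00862) and *Znrf3* (0.43 ± 0.14, 0.0239) were small and depended on single libraries: without *Rbpj*-KO 2i replicate 28 or N16h replicate 20 both were lost (adjusted p = 0.0788 and 0.0537 for *Notum*, 0.099 and 0.11 for *Znrf3*), and without N16h replicate 19 *Znrf3* was lost (0.137).

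*Etv5*-KO lines had 4 genes called higher in 2i and 0 lower, where 9.47% of genes were called higher and 31.3% lower, or 23.9% and 20.9% with TMM. *Axin2* was 4.73-fold higher (2.24 ± 0.16, adjusted p = 1.97e-14), *Sp5* 43.8-fold (5.45 ± 0.53, 8.01e-11), *Cdx1* 24.5-fold (4.61 ± 0.31, 1.31e-15) and *Cdx2* 63.1-fold (5.98 ± 0.58, 5.57e-11). The log2FC of *Cdx2* was 7.23 without N16h replicate 17 and 5.28 without replicate 18. *Notum* and *Znrf3* were not called. *Notum* was at 17.4, 12.8 and 12.6 FPKM in *Etv5*-KO 2i and 15 and 14.7 at N16h, so that the groups overlapped (-0.2 ± 0.17, 0.413). With the clonal line as a block it was called lower in 2i (-0.41, 0.0472), and with TMM its log2FC was 0.02. *Znrf3* differed by -0.06 ± 0.16 (0.798). *Rnf43* passed the test below the FPKM minimum (2.8 ± 0.36, 3.19e-08), and *Nkd1* did not pass (0.4 ± 0.33, 0.372).

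**Figure D2:**
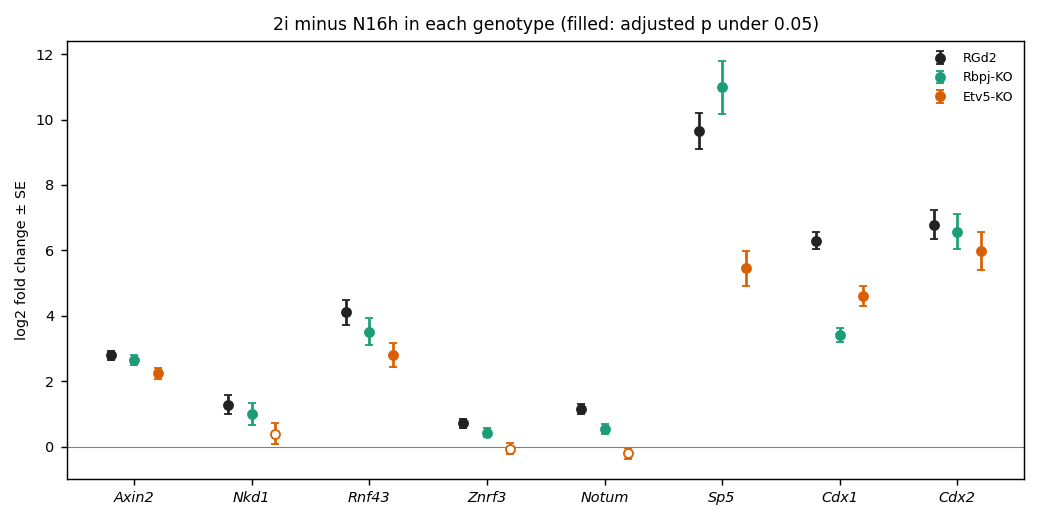
Log2 fold change of each gene between 2i and N16h in RGd2, *Rbpj*-KO and *Etv5*-KO, with approximate SE bars derived from the test's F statistic. Filled symbols have an adjusted p under 0.05, whatever the FPKM. *Sp5* and *Cdx2* are high in all 3 genotypes, although in RGd2 and *Rbpj*-KO the fitted height of *Sp5*, and in *Rbpj*-KO that of *Cdx2*, rests on N16h libraries at or under 3 reads, and *Notum* runs from 1.15 in RGd2 to -0.2 in *Etv5*-KO.

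Whether the responses themselves differed between genotypes was tested as a difference of log2FC, mutant minus RGd2. Both mutants share the RGd2 libraries. In *Rbpj*-KO, *Cdx1* was the 1 gene called, with a smaller response by -2.9 ± 0.35 (adjusted p = 5.66e-07). Over all genes, 3.79% were called with a smaller and 0.238% with a larger response, or 2.57% and 1.22% with TMM. The other 7 genes did not pass, with *Notum* nearest at -0.6 ± 0.22 (0.146). *Cdx1* was at 26.7, 15.3 and 15.1 FPKM in *Rbpj*-KO 2i, overlapping with RGd2 2i (-0.24 ± 0.18, 0.51), and without replicate 28 it was called lower (-0.58, 0.0296). At N16h it was at 2.21, 1.06 and 2.18 FPKM, above all RGd2 libraries at 0.353, 0.233 and 0.396. That rise was 6.32-fold (2.66 ± 0.3, 6.79e-09). It was the 1 gene called higher in *Rbpj*-KO N16h, where 18.8% of genes were called higher and 3.41% lower, or 14.5% and 11.3% with TMM. *Sp5* and *Cdx2* had 3 reads or fewer in each *Rbpj*-KO N16h library. *Axin2*, *Nkd1*, *Rnf43* and *Znrf3* did not pass (log2FC of -0.8 to 0.3, adjusted p = 0.0897 to 0.826).

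The 1 gene called lower in *Rbpj*-KO N16h was *Notum*, at 14.6, 12.9 and 14.2 FPKM against 31.7, 30.2 and 21.6 (-0.9 ± 0.16, adjusted p = 3.56e-05). With TMM a further gene was called lower. At the FPKM minimum, only *Axin2* besides *Notum* had a negative log2FC with spike-ins (-0.3 ± 0.14, 0.155). *Axin2* was at 3.04, 2.05 and 2.37 FPKM against 3.57, 3.13 and 3.24 in RGd2 N16h. In *Rbpj*-KO 2i, 3 genes were called lower and 0 higher, where 6.12% of genes were called lower and 5.24% higher, or 7.8% and 10.8% with TMM. *Notum* was at 22.3, 17.7 and 18.9 FPKM against 55.2, 50.2 and 54 in RGd2 2i, 2.82-fold lower (-1.5 ± 0.16, 3.67e-09). *Axin2* (-0.45 ± 0.13, 0.0213) and *Sp5* (-1.06 ± 0.27, 0.00771) overlapped with RGd2 in normalised counts. *Nkd1* passed below the FPKM minimum (-1.09 ± 0.29, 0.0106), but not without RGd2 2i replicate 31 (0.0836) or *Rbpj*-KO 2i replicate 29 (0.0694), and *Rnf43*, *Znrf3* and *Cdx2* did not pass (log2FC of -0.59 to -0.09, adjusted p = 0.219 to 0.784). The call of *Axin2* was lost when RGd2 2i replicate 31 was left out (0.135), likewise *Rbpj*-KO 2i replicates 29 (0.127) and 30 (0.166), and in a fit of the compared libraries alone (0.279). That of *Sp5* was lost when either of the same mutant replicates was left out (0.0646 and 0.103) and with DESeq2 (0.061).

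In *Etv5*-KO, 5 genes had a smaller response to withdrawal than in RGd2 and 0 a larger one, but 36.7% of all genes were called with a smaller and 0.531% with a larger response. With TMM these shares were 8.47% and 4.79%, and *Notum* was the 1 gene of the 8 still called. The difference for *Notum* was -1.34 ± 0.23 (adjusted p = 3.32e-05), and -0.91 with TMM (0.000947). *Cdx1* (-1.69 ± 0.47, 0.00662), *Znrf3* (-0.79 ± 0.21, 0.00545), *Axin2* (-0.55 ± 0.2, 0.0394) and *Sp5* (-4.21 ± 1.34, 0.0182) were lost with TMM, and all 4 were lost without *Etv5*-KO N16h replicate 18 (0.111, 0.0778, 0.127 and 0.0689), which leaves a single library in that group. For *Sp5* the difference rests on N16h libraries with 1, 1 and 0 reads in RGd2 and 5 and 4 in *Etv5*-KO, so that its fitted size is no bound. *Nkd1*, *Rnf43* and *Cdx2* did not pass (adjusted p = 0.0699 to 0.622). *Axin2* and *Sp5* were also lost without *Etv5*-KO N16h replicate 17 (0.0737 and 0.0901), and *Axin2* when any of 5 other libraries was left out, namely replicate 31 of RGd2 2i (0.146), replicates 23 and 24 of RGd2 N16h (0.0828 and 0.0813) and replicates 26 and 27 of *Etv5*-KO 2i (0.0687 and 0.113), and in a fit of the compared libraries alone (0.0994).

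The level of *Notum* in *Etv5*-KO 2i, 17.4, 12.8 and 12.6 FPKM, was 4.15-fold below RGd2 2i by normalised counts (-2.05 ± 0.16, adjusted p = 4.12e-13). *Sp5* (-1.66 ± 0.27, 1.12e-05), *Cdx1* (-1.6 ± 0.19, 1.48e-08) and *Cdx2* (-1.3 ± 0.28, 0.000555) were also lower. Called lower were 27.9% of all genes and called higher 6.14%, or 14.6% and 18.3% with TMM. With the clonal line as a block, 5 genes were called lower. *Nkd1* passed below the FPKM minimum (-1.12 ± 0.28, 0.00231), and *Axin2*, *Znrf3* and *Rnf43* did not pass (log2FC of -0.36 to 0.47, adjusted p = 0.0517 to 0.202). At N16h, 1 gene was called higher, *Znrf3* (0.42 ± 0.16, 0.0416), and 1 lower, *Notum* (-0.71 ± 0.18, 0.00229), where 29.3% of all genes were called higher and 3.24% lower, or 16.3% and 12.8% with TMM. *Znrf3* was lost with TMM (0.18, 0.236) and without any of RGd2 replicates 22, 23 and 24 or *Etv5*-KO replicate 18 (0.0799, 0.0793, 0.0902 and 0.455). *Rnf43* passed below the FPKM minimum (1.78 ± 0.48, 0.0047), but not without *Etv5*-KO replicate 17 (0.0823), and the other 5 genes did not pass (adjusted p = 0.153 to 0.904).

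**Figure D3:**
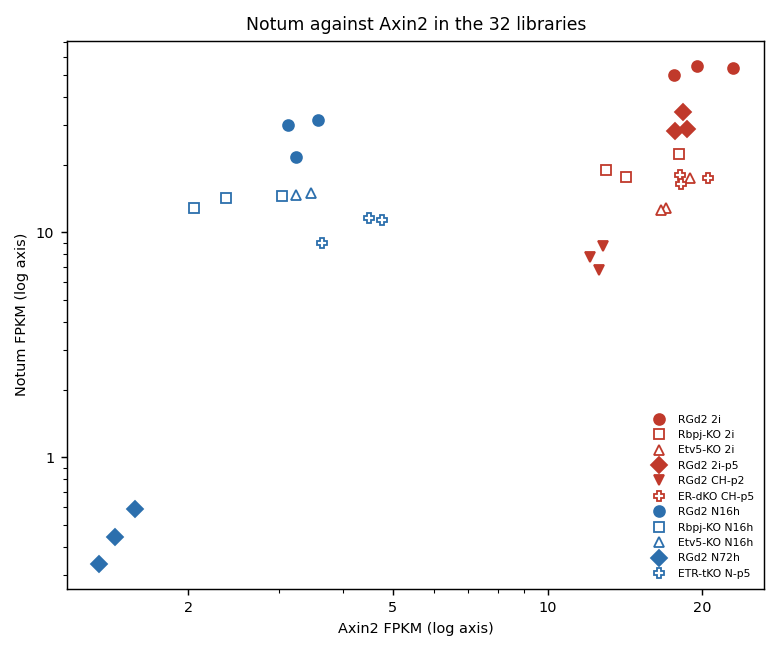
*Notum* against *Axin2* in each of the 32 libraries (FPKM, both axes log), with filled markers for RGd2 and open markers for mutants. *Axin2* puts every library with the inhibitor above 12 and every library without it below 5, whereas *Notum* in RGd2 N16h (21.6 to 31.7) is above RGd2 CH-p2 (6.84 to 8.74). RGd2 N16h and CH-p2 lie in different runs of library numbers.

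Longer culture without inhibitors was compared with passaged 2i. Between RGd2 2i-p5 and N72h, 6 genes were called higher with the inhibitors and 1 lower, where 22.9% of genes were called higher and 34.2% lower, or 34.3% and 31.1% with TMM. The median log2FC was 4.76 for the 8 genes and -0.11 for all genes tested. *Notum* was 60.9-fold higher (5.93 ± 0.22, adjusted p = 4.9e-24), *Axin2* 12.1-fold (3.59 ± 0.15, 4.63e-22) and *Cdx1* at least 98.9-fold. *Sp5* (7.87 ± 0.51, 4.16e-16) and *Cdx2* (6.04 ± 0.53, 1.24e-12) were called on N72h counts of 4 or fewer, and without N72h replicate 7 or 9 their log2FC was 9.46 or 7.22 for *Sp5* and 7.04 or 5.34 for *Cdx2*. *Znrf3* rose slightly (0.45 ± 0.15, 0.00901) and was lost without 2i-p5 replicate 2 (0.0566). *Nkd1* was the gene called lower, at 0.877, 0.648 and 0.494 FPKM in 2i-p5 against 1.51, 1.42 and 1.39 at N72h (-1.19 ± 0.28, 0.000444). *Rnf43* passed in the other direction below the FPKM minimum (0.82 ± 0.27, 0.0113).

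With GSK3 inhibition alone, 7 genes were called higher in CH-p2 than at N72h and 0 lower, against a background of 19.9% higher and 17.3% lower. *Rnf43* passed the test too (1.35 ± 0.27, adjusted p = 0.000135), so that all 8 were higher. *Cdx1* was at least 440-fold higher, *Sp5* 515-fold (9.01 ± 0.49, 8.77e-18), *Cdx2* 202-fold (7.65 ± 0.5, 5.4e-16), *Notum* 17.1-fold (4.09 ± 0.23, 3.38e-18) and *Axin2* 9.04-fold (3.18 ± 0.15, 5.36e-20). At N72h *Sp5* had 4, 0 and 1 reads and *Cdx2* 4, 1 and 1, so that the sizes of their folds rest on few reads: without N72h replicate 7 or 9 the log2FC was 10.61 or 8.37 for *Sp5* and 8.65 or 6.96 for *Cdx2*. *Znrf3* rose by 0.71 ± 0.15 (0.000184) and *Nkd1* by 0.81 ± 0.25 (0.0133), the latter being lost without CH-p2 replicate 5 (0.0974).

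Between both media that contain the GSK3 inhibitor, the targets split. Compared with 2i-p5, CH-p2 had 4 genes called higher and 2 lower, where 28.6% of genes were called higher and 13.6% lower, or 22.9% and 28.6% with TMM. *Cdx1* was 4.46-fold higher in CH-p2 (2.16 ± 0.2, adjusted p = 6.91e-12), *Nkd1* 3.99-fold (2 ± 0.28, 1.94e-07), *Cdx2* 3.06-fold (1.61 ± 0.29, 2.32e-05) and *Sp5* 2.21-fold (1.14 ± 0.26, 0.00056). *Notum* was 3.56-fold lower (-1.83 ± 0.17, 8.29e-12) and *Axin2* 1.34-fold lower (-0.42 ± 0.14, 0.0129). *Znrf3* (0.26 ± 0.15, 0.168) and *Rnf43* (0.53 ± 0.27, 0.12) did not pass. CH-p2 differed from 2i-p5 in its markers too. All 8 naive markers were called lower in CH-p2, summing to 275 to 309 FPKM against 733 to 781, and all 5 formative markers higher, at 125 to 146 against 30.6 to 33.9. The mesendoderm list of 6 genes summed to 70.4 to 74.2 FPKM in CH-p2 and 8.95 to 10.1 in 2i-p5. Of this, *T* (Brachyury), itself a Wnt target, made up 69.1 in the mean of CH-p2, with *Eomes* at 1.91, *Foxa2* at 0.615, *Mixl1* at 0.557, *Mesp1* at 0.108 and *Gsc* at 0.0548. Trophoblast markers summed to 96.6 to 138 FPKM against 21.6 to 26.3, with 2 of the 6 called higher and 0 lower, but to 169 to 180 at N72h. Their part in the values of the 8 genes was not tested.

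**Figure D4:**
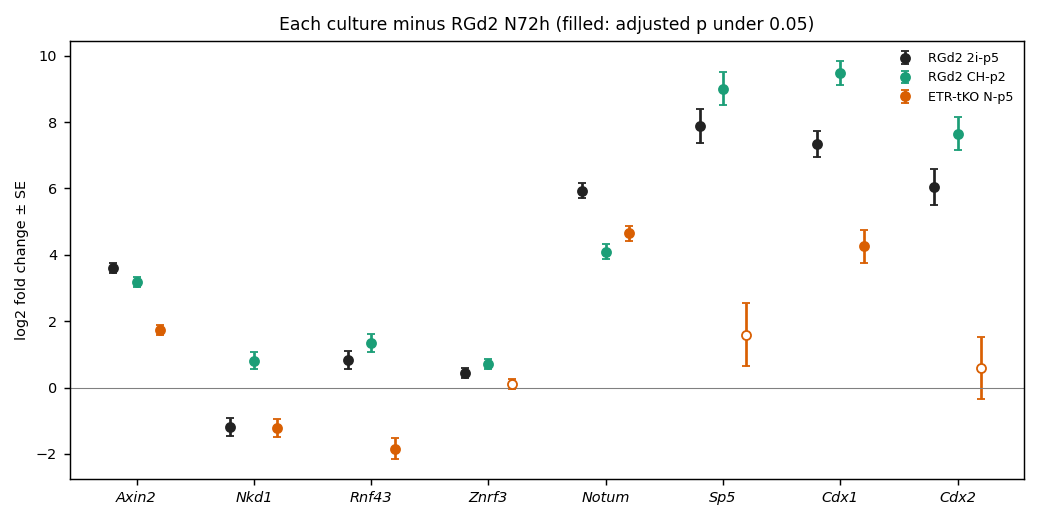
Log2 fold change of each gene against RGd2 N72h for RGd2 2i-p5, RGd2 CH-p2 and ETR-tKO N-p5, with SE bars; filled symbols have an adjusted p under 0.05. *Axin2* and *Notum* are above N72h in all 3, *Sp5* and *Cdx2* only pass the test in the cultures with the GSK3 inhibitor, and *Nkd1* lies below N72h in 2i-p5 and ETR-tKO.

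ETR-tKO lines lack the repressor TCF3 and were kept without inhibitors. Relative to RGd2 N72h, which shares the medium but not the time in culture, 2 genes were called higher and 1 lower, where 35.5% of genes were called higher and 23.6% lower, or 33% and 33.4% with TMM. *Axin2* was at 3.64, 4.77 and 4.49 FPKM, 3.35-fold above N72h (1.74 ± 0.15, adjusted p = 6.37e-13), and *Notum* was 25.1-fold above it (4.65 ± 0.22, 8.59e-21). *Nkd1* was lower (-1.22 ± 0.27, 0.000173), at 0.412, 0.747 and 0.487 FPKM. *Cdx1*, at 0.715, 0.907 and 0.791 FPKM, was at least 11.8-fold higher but under the FPKM minimum, and *Rnf43* was lower (-1.84 ± 0.31, 3.12e-06), also under it. *Sp5* had 15, 4 and 0 reads in the 3 ETR-tKO lines (1.59 ± 0.95, 0.165), and passed the test without replicate 15 (2.15, 0.0409). Its log2FC was 0.24 without ETR-tKO replicate 13, and 3.19 or 0.95 without N72h replicate 7 or 9. *Cdx2* had 5, 2 and 4 reads. *Znrf3* and *Cdx2* did not pass (adjusted p = 0.554 and 0.635).

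Against RGd2 2i-p5, with both inhibitors and the same number of passages, ETR-tKO remained below for 5 genes and above for 0. In this direction 9.53% of all genes were called and in the other 37.7%, or 26.8% and 23% with TMM. *Sp5* was 77.4-fold higher in 2i-p5 (6.28 ± 0.41, adjusted p = 3.17e-15, and 7.63 without ETR-tKO replicate 13), *Cdx2* 43.9-fold (5.46 ± 0.47, 2.87e-12), *Cdx1* 8.48-fold (3.08 ± 0.24, 8.25e-14), *Axin2* 3.61-fold (1.85 ± 0.14, 5.55e-14) and *Notum* 2.43-fold (1.28 ± 0.16, 1.87e-08). *Znrf3* did not pass (0.34 ± 0.14, 0.0558), but was called with TMM (0.6, 9.33e-06). *Rnf43* passed below the FPKM minimum (2.66 ± 0.31, 3e-09), and *Nkd1* did not pass (adjusted p = 0.949).

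ER-dKO lines in CH alone retain *Tcf7l1*, at 4.03 to 4.31 FPKM. Compared with ETR-tKO, 6 genes were called higher and 0 lower, where 9.9% of genes were called higher and 14.6% lower, or 21% and 16.4% with TMM. *Axin2* was at 20.5, 18.1 and 18.2 FPKM in ER-dKO, 4.47-fold above ETR-tKO (2.16 ± 0.14, adjusted p = 1.53e-15), *Sp5* was 47-fold higher (5.55 ± 0.41, 1.93e-13, and 6.91 without ETR-tKO replicate 13), *Cdx2* 41.4-fold (5.37 ± 0.46, 4.52e-12) and *Cdx1* 11.8-fold (3.56 ± 0.23, 1.28e-15). *Znrf3* was 1.73-fold (0.79 ± 0.14, 3.53e-05) and *Notum* 1.64-fold higher (0.72 ± 0.16, 0.000559). *Rnf43* passed below the FPKM minimum (1.65 ± 0.3, 4.5e-05), and *Nkd1* did not pass (adjusted p = 0.0704). The inhibitor and the deletion of *Tcf3* differ together here and cannot be told apart.

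In the same medium, ER-dKO CH-p5 and RGd2 CH-p2 were unlike. ER-dKO had 2 genes called higher and 4 lower, where 28.3% of all genes were called higher and 21.3% lower. *Notum* was at 17.4, 18 and 16.4 FPKM in ER-dKO, 2.41-fold above RGd2 (1.27 ± 0.16, adjusted p = 2.69e-08), and *Axin2* was 1.65-fold above (0.73 ± 0.13, 2.12e-05). *Sp5* was 3.64-fold lower (-1.86 ± 0.26, 1.99e-07), *Cdx2* 3.24-fold (-1.7 ± 0.28, 4.04e-06), *Cdx1* 3.21-fold (-1.68 ± 0.19, 6.61e-10) and *Nkd1* 2.59-fold (-1.37 ± 0.26, 2.3e-05). *Rnf43* passed below the FPKM minimum (-1.54 ± 0.27, 6.92e-06), and *Znrf3* did not pass (adjusted p = 0.298). The genotype and the number of passages differed together. Mesendoderm markers summed to 14.7 to 16.4 FPKM in ER-dKO and naive markers to 778 to 793, against 70.4 to 74.2 and 275 to 309 in RGd2 CH-p2, and their part was not tested. Against RGd2 2i-p5 the differences were small, with 1 gene called higher, *Znrf3* (0.45 ± 0.14, 0.0137), and 2 lower, *Notum* (-0.56 ± 0.16, 0.00437) and *Sp5* (-0.72 ± 0.26, 0.031), where 33.9% of all genes were called higher and 8.43% lower, or 21.8% and 20.5% with TMM. *Sp5* was lost when any one of the 6 libraries was left out (0.0566 to 0.0906) and with DESeq2 (0.137), and *Znrf3* with TMM (0.24, 0.0565) or without 2i-p5 replicate 1 or 3 or ER-dKO replicate 10 or 12 (0.0545 to 0.0767). The clonal line as a block raised the number called higher to 3. *Rnf43* passed below the FPKM minimum (-1.01 ± 0.27, 0.00304), and *Axin2*, *Nkd1*, *Cdx1* and *Cdx2* did not pass (log2FC of -0.08 to 0.63, adjusted p = 0.0513 to 0.859).

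RGd2 2i-p5 and 2i also differed, across the runs of library numbers: 5 genes were called lower in 2i-p5 and 0 higher, where 49.4% of all genes were called lower and 2.89% higher, or 11.5% and 14.5% with TMM. *Cdx1* was 3.36-fold lower (-1.75 ± 0.2, adjusted p = 1.54e-08), at 8.52, 7.53 and 7.74 FPKM, *Cdx2* 2.32-fold (-1.22 ± 0.29, 0.00136) and *Notum* 2.17-fold (-1.12 ± 0.16, 1.19e-06), while *Axin2* (-0.43 ± 0.13, 0.0108) and *Znrf3* (-0.45 ± 0.14, 0.0127) were lost with TMM (-0.08 and -0.09). Both were also lost without RGd2 2i replicate 31 (0.116 and 0.292) and in a fit of the compared libraries alone (0.119 and 0.113), and *Znrf3* without 2i-p5 replicate 1 (0.0566) or 3 (0.0501). *Rnf43* passed in the other direction below the FPKM minimum (0.71 ± 0.28, 0.0437), but not with the clonal line as a block (0.0537), with the total spike-in count (0.0504), with no low-count filter (0.0964), in a fit of the compared libraries alone (0.132), or without any of RGd2 2i replicates 31 and 32 and 2i-p5 replicates 1, 2 and 3 (0.0727 to 0.238). *Nkd1* and *Sp5* did not pass (adjusted p = 0.153 and 0.407). The library runs, the passages and the recent culture of the 2i cells in CH/LIF cannot be told apart in this comparison. TMM moved the median of all genes by more than 0.1 in 13 of the 19 comparisons, in this one from -0.37 to -0.01 and the most in the *Etv5*-KO difference of responses, from -0.47 to -0.01.

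Other parts of the pathway were counted by list. Between RGd2 2i and N16h the counts stand beside 37.4% of all genes called higher and 8.63% lower, or 24.4% and 22.5% with TMM, and nothing particular to a list is read from them. Of 11 further Wnt targets, 7 reached the FPKM minimum between RGd2 2i and N16h, of which 4 were higher in 2i and 1 lower. They included the receptor gene *Tnfrsf19* (2.23 ± 0.14, adjusted p = 2.73e-16), and the 1 lower was *Myc* (-1.55 ± 0.16, 1.23e-10). Among 14 measured receptors, 8 were higher in 2i and 1 lower, led by *Fzd10* (3.7 ± 0.14, 7.29e-23), which encodes a Frizzled receptor. Of 11 nuclear effectors, 7 were higher and 3 lower, and of 15 cytoplasmic transducers, 6 were higher and 0 lower. The secreted antagonists held 2 measured genes, both higher in 2i. Of 2 measured ligands, 1 was higher and 1 lower. The list of R-spondins and their receptors held 1 measured gene, which was not called.

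Between CH-p2 and N72h, where 19.9% of all genes were called higher and 17.3% lower, 5 of 10 measured further targets were higher and 1 lower, with *Sp8*, a relative of *Sp5*, at 5.2 ± 0.28 (adjusted p = 2.71e-18) and *Nkd2*, the paralogue of *Nkd1*, at -1.12 ± 0.23 (0.000151). Of 15 receptors, 3 were higher and 6 lower. *Fzd10* was again higher (4.8 ± 0.16, 2.57e-25). Of 4 measured secreted antagonists, 0 were higher and 3 lower, and of 15 cytoplasmic transducers likewise 0 and 3. Of 11 nuclear effectors, 3 were higher and 2 lower, and of 2 measured R-spondins and their receptors 1 was higher and 0 lower. Among the ligands, 4 of 6 measured were higher and 1 lower. The sum over the 19 ligand genes was 115 to 122 FPKM in the CH-p2 libraries and 12.9 at most in any other, and *Wnt8a* alone was at 91.7 to 102 FPKM in CH-p2 and 0.103 to 0.679 at N72h (8.71 ± 0.37, 9.43e-22). Endogenous ligand RNA therefore differed between CH-p2 and the other cultures, and its part in the levels of the 8 genes was not tested.

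The genes whose condition means were most like those of *Axin2*, by Pearson's r of log2(FPKM + 1) over the 11 conditions among 13751 genes, were *Mfsd12* (0.96), *Grsf1* (0.96), *Lefty2* (0.96), *Slc18b1* (0.95) and *Clta* (0.95). Of the 8 Wnt targets, *Sp5*, *Cdx1* and *Cdx2* each had an r of 0.88, *Znrf3* 0.85, *Notum* 0.58 and *Nkd1* 0.14. Conditions share media and cell lines, and these values describe the pattern only. The ranking depends on the measure: by Spearman's rho *Mfsd12* ranked 127.5, *Grsf1* 324 and *Clta* 72 while *Lefty2* and *Slc18b1* shared the highest value, and by Pearson's r of normalised counts *Slc18b1* ranked 19 and *Clta* 28. *Rnf43* did not reach the FPKM minimum in any condition and was not ranked.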

How the data were processed

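RNA-seq of 32 mouse ESC libraries was analysed from the table of raw counts per gene and per ERCC spike-in that the authors deposited, without normalization. The authors depleted ribosomal RNA, made strand-specific paired-end libraries, trimmed reads with Trim Galore, aligned them to mm10 with TopHat2, guided by Gencode models, and counted unique primary matches with featureCounts; the tool names also stand in the submitters' processing notes. *Axin2* and *Notum* overlap genes on the other strand, which stranded counting separates. From the deposited counts, FPKM was computed here with the table's gene lengths. All log2 fold changes were likewise fitted to deposited counts. Groups came from the sample labels.

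Of 51826 genes, 193 had no symbol (0.02589% of counts). Libraries were scaled by the median ratio to 52 of 92 spike-ins, those detected in all of them. After filterByExpr, 18892 genes remained. They entered 1 edgeR quasi-likelihood fit (edgeR 4.0.16, R 4.3.3) in which each condition had its own term, tests were two-sided, and Benjamini-Hochberg adjustment ran over them all. For a call, the threshold on adjusted p was 0.05 and mean FPKM had to reach 1 on either side, or in any condition for a difference of responses. Fold changes are the first-named group over the second. Groups with 3 counts or fewer in every library were set at that floor per library, and the fold is then a bound that covers counting error only. Chi-square per gene between replicates was 3.391 to 44.33, so no libraries were duplicates.

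Same-named clonal lines pair 2i with N16h by the labels. Deviations from the group means correlated at 0.07 to 0.18 within RGd2 lines and -0.16 to -0.1 between them. For the same *Rbpj*-KO line they correlated at 0.03 to 0.11, and between lines at -0.06 to 0.02. In *Etv5*-KO these values were 0.01 and 0.02 for the same line and -0.02 to 0.01 between lines. Deviations cancel within a group, so the values between lines are not independent of those within them. Alternatives were TMM, median of ratios on gene counts, total spike-in count, DESeq2 1.42.0, no low-count filter, no FPKM minimum, only the libraries compared, the clonal line as block, and leaving out each library. The calling steps were tested on simulated data.

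All 8 members are accounted for in each comparison. From each pathway list at most 2 called genes per direction with the largest change were named, and the 5 genes most like *Axin2*. Members and lists were chosen with earlier results of these data known.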

Additional observations from a re-analysis of the deposited data

Results flagged for a closer look

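Because the response to 2i withdrawal differed between a mutant and RGd2 in a test of the difference itself, 6 values are listed here, each as the log2FC of 2i over N16h in the mutant minus that in RGd2. In *Rbpj*-KO, *Cdx1* differed by -2.9 ± 0.35 (SE, adjusted p = 5.66e-07), from 3.41 in *Rbpj*-KO and 6.3 in RGd2, and by -2.74 with TMM (1.67e-05). In *Etv5*-KO, *Notum* differed by -1.34 ± 0.23 (3.32e-05), from -0.2 and 1.15, and by -0.91 with TMM (0.000947). Also in *Etv5*-KO, *Cdx1* differed by -1.69, *Znrf3* by -0.79, *Axin2* by -0.55 and *Sp5* by -4.21. With TMM these 4 were at -1.27, -0.32, -0.12 and -3.81 and did not pass (adjusted p = 0.118, 0.166, 0.749 and 0.126). No single sample stood out by a test within a group, since groups of 3 or fewer are too small for one.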

How the results depend on the processing

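Numbers of genes called kept their value or stayed within 1.5 times of it in 205 of 226 recalculations that left out no single library. TMM and median of ratios on gene counts each gave 1 gene with a smaller response in *Etv5*-KO (5 with spike-ins), 0 higher in *Etv5*-KO N16h than RGd2 N16h (1), 2 lower in *Rbpj*-KO N16h (1), 3 lower in 2i-p5 than 2i (5) and 0 higher in ER-dKO than 2i-p5 (1). For that last comparison, total spike-in count and no low-count filter each gave 2 higher, the clonal line block and only the libraries compared each 3, and DESeq2 1 lower (2). Only the libraries compared gave 3 lower in 2i-p5 than 2i. No FPKM minimum gave 2 lower in ETR-tKO than N72h (1), 2 higher in *Etv5*-KO N16h (1) and 1 higher in 2i-p5 than 2i (0). No low-count filter gave 2 smaller responses in *Rbpj*-KO (1). The clonal line as replicate block gave 1 lower in *Etv5*-KO 2i than N16h (0) and changed no call beyond those given here and beside the results.

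Leaving out 1 library at a time gave 4 to 6 genes higher in *Rbpj*-KO 2i than N16h, 5 to 6 in 2i-p5 and 6 to 7 in CH-p2 than N72h, 0 to 2 higher and 1 lower in ER-dKO than 2i-p5, 1 to 5 lower in *Rbpj*-KO 2i than RGd2 2i, 1 to 2 lower in *Rbpj*-KO N16h, 4 to 6 lower in *Etv5*-KO 2i, 0 to 1 higher in *Etv5*-KO N16h, 1 to 2 and 1 to 5 smaller responses in *Rbpj*-KO and *Etv5*-KO, and 3 to 5 lower in 2i-p5 than 2i. A group left with 1 library was assumed to vary like the others.

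Between *Etv5*-KO 2i and N16h, *Znrf3* (-0.06) changed sign to 0.17 with TMM, 0.15 with median of ratios and lay between -0.21 and 0.1 with 1 library left out, and *Notum* (-0.2) moved to 0.02 and 0 with the first pair; none passed the test. The cause of these changes was not tested. Over all cultures, no FPKM minimum gave 8 genes higher, and leaving out CH-p2, an alternative chosen after seeing the data, gave 6. Depth limits *Sp5* and *Cdx2* without inhibitor, where a few reads per library cannot show differences between genotypes.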
